A study of Mus musculus with 278 samples.

Results

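Antigen presentation was followed in single mammary epithelial cells through 10 genes. H2-K1 and H2-D1 encode class I heavy chains and B2m the light chain that holds them at the cell surface. Tap1 and Tapbp serve the loading of peptides, Psmb8 and Psmb9 are catalytic subunits of the immunoproteasome, and Cd74, H2-Aa and H2-Ab1 belong to the class II pathway. The genes were listed by name and looked up by Entrez ID among the 25136 genes kept in the count files. All 10 were found, and all 10 were among the 15290 genes that reached 1 read per 1000000 reads of a cell (1 CPM) in 3 or more cells and so entered the comparisons.

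The cells came from mammary glands of FVB/NJ mice, were isolated with the Fluidigm C1, in which every cell is lysed and turned into cDNA in a chamber of its own, and were sequenced as 1 library each. Freshly sorted luminal cells (43) and basal cells (112) represented the adult gland, and 123 cells of total epithelium represented mid-pregnancy, none of them treated. With a minimum of 50000 reads, 41 adult luminal, 84 adult basal and 96 pregnancy cells were retained, 221 of 278. Adult basal cell 19 carried immune markers and was left out, and its values appear only in the closing section. The study's sorts started from lineage-negative cells, a gate whose antibodies included one to CD45, the product of the pan-leukocyte gene Ptprc. Pregnancy cells were not sorted by layer, so stage and sort cannot be told apart in comparisons of pregnancy with an adult sort.

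Each library was 1 cell and the labels named no animal, which makes each group 1 sample. Groups could therefore not be tested against each other, and no difference has a replicate check. Levels are the reads of a gene summed over the cells of a group, in CPM of that group's total. Intervals are exact at the 95% level (Poisson for levels, conditional for ratios, Clopper-Pearson for shares of cells) and leave out differences between animals. Those for levels and ratios cover error in counting reads only. They are too narrow where PCR copies of 1 molecule, which could not be recognized, were counted as separate reads. Those for shares treat cells as independent, although cells are not replicates of a group. The median depth was 637857 reads in adult luminal, 373518.5 in adult basal and 215202 in pregnancy cells, and shares of cells with a gene were taken after every cell had been thinned to 50000 reads. Milk genes took 22.8% of the reads in pregnancy, 1.25% in adult luminal and 0.000687% in adult basal cells, which lowers the CPM of every other gene where they are high.

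The adult sorts carried their own markers. Krt18, a keratin of the luminal layer, was detected in all 41 adult luminal cells and in 45.2% of adult basal cells. Krt14, a keratin of the basal layer, was detected in 97.6% of adult basal and 19.5% of adult luminal cells.

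Class I molecules show peptides made inside the cell to CD8+ T cells and are carried by almost every nucleated cell. The proteasome cuts proteins into peptides, the TAP transporter moves them into the endoplasmic reticulum, and tapasin, the product of Tapbp, bridges TAP and the empty heavy chain until a peptide has bound. In the immunoproteasome, Psmb8 and Psmb9 take the places of the constitutive subunits Psmb5 and Psmb6. Class II molecules show peptides from outside the cell to CD4+ T cells and are held mainly by dendritic cells, macrophages and B cells, where Cd74, the invariant chain, guards the groove of the alpha chain (H2-Aa) and beta chain (H2-Ab1) on the way to the endosome. Interferons and NF-kB raise the class I pathway in many cell types, and the coactivator Ciita is the master switch of class II.

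Of the 10 genes, 8 lie on chromosome 17 in the histocompatibility complex (GRCm38.p6). Psmb9 (34182030 to 34187330) and Tap1 (34187556 to 34197225) stand head to head, and Psmb8 (34198195 to 34201454) follows directly. By coordinate, Tapbp (33919478 to 33929290) and H2-K1 (33996012 to 34000619) lie before these genes. H2-Ab1 (34263227 to 34269418) and H2-Aa (34282744 to 34287823) lie after them, and H2-D1 (35263094 to 35267497) lies further along. B2m is on chromosome 2 (122147687 to 122153082). In the count files the genes carried the Entrez IDs 14972 (H2-K1), 14964 (H2-D1), 12010 (B2m), 21354 (Tap1), 21356 (Tapbp), 16913 (Psmb8), 16912 (Psmb9), 16149 (Cd74), 14960 (H2-Aa) and 14961 (H2-Ab1). The heavy chain genes form a family of near-identical copies, and FVB/NJ carries another histocompatibility haplotype than the reference strain, so the division of reads between H2-K1, H2-D1 and their relatives is uncertain.

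RefSeq promoter windows (GRCm38.p6) were held for 8 of the 10 genes, with no entry for Cd74 and H2-Ab1. The 250 bases before the start were searched on both strands for GAAANNGAA (interferon regulatory factors), GGNNTTNCC (NF-kB), CCAAT (NF-Y) and AGCAAC (RFX). Capitals in the lines that follow mark the matches, none of which overlapped another, and the strand is that of the gene except for the segment between Tap1 and Psmb9, which is on the strand of Tap1. H2-K1 and B2m are shown because they are the chains found in nearly every cell, the segment of 225 bases between the starts of Tap1 and Psmb9 because the genes share it, and H2-Aa as the class II gene.
H2-K1, chr17:34000348-34000597, minus strand: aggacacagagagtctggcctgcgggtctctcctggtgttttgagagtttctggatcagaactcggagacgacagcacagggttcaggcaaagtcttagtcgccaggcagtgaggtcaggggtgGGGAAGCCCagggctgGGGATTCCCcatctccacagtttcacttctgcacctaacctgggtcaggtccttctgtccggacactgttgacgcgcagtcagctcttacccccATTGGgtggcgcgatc
B2m, chr2:122147437-122147686, plus strand: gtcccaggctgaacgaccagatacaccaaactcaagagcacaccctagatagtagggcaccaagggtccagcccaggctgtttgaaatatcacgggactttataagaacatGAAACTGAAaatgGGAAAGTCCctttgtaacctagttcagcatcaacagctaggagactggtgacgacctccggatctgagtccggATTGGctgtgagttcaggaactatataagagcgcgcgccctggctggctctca
Tap1 to Psmb9, chr17:34187331-34187555, plus strand: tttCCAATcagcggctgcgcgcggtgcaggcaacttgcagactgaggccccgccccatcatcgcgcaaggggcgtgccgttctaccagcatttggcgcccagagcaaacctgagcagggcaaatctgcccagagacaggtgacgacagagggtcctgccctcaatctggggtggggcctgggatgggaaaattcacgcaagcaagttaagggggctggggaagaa
H2-Aa, chr17:34287824-34288073, minus strand: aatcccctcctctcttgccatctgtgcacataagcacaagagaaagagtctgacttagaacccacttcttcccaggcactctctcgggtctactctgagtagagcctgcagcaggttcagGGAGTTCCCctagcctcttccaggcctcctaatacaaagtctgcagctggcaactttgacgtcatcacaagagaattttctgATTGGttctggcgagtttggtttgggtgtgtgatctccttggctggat

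The NF-kB letters occurred in the windows of H2-K1, H2-D1, B2m and H2-Aa, 4 of 8, against 13.5% of all 32851 promoter windows. H2-K1 and H2-D1 held the same 2 matches with the same spacing, GGGAAGCCC at 126 to 118 bases and GGGATTCCC at 110 to 102 bases before the H2-K1 start whose window is shown, and at 186 to 178 and 170 to 162 bases before the H2-D1 start. The interferon letters occurred in B2m only, against 7.13% of windows. NF-Y letters were in 7 of 8 windows, Psmb8 being the exception, against 33.8% of all, and the same CCAAT lay in the windows of both Tap1 and Psmb9. The RFX letters were in none of the 8 and in 12.2% of all windows. A match is a description of the letters in the window, not of a site in use. Variants of these strings were not searched, so a window without a match is not shown to lack such an element.

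The class I chains were the most widespread of the 10 genes. H2-K1, H2-D1 and B2m were all detected in the whole adult luminal sort (41 of 41, 100%, interval 91.4 to 100). The adult basal sort had all 3 in 69 of 84 cells (82.1%, 72.3 to 89.6) and pregnancy in 94 of 96 (97.9%, 92.7 to 99.7). B2m had the highest level per kilobase of transcript of the 3 chains in each group. In adult luminal cells it stood at 2598 CPM per kilobase, H2-D1 at 572 and H2-K1 at 355.

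B2m ranged from 672 to 9123 CPM over adult luminal cells with a median of 2035. In adult basal cells it ran from 0 to 7235 CPM (median 1254), and in pregnancy cells from 166 to 9296 CPM (median 2065). The 3 ranges overlapped over most of their length. Summed over the cells, B2m came to 2229 CPM (2211 to 2248) in adult luminal, 1293 (1281 to 1304) in adult basal and 2429 (2409 to 2449) in pregnancy cells, so the adult basal sort was lowest and the counting intervals did not overlap.

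H2-D1 separated the adult sorts more than the other class I chains. It ran from 225 to 7602 CPM (median 880) in adult luminal cells and from 0 to 2179 CPM (median 275) in adult basal cells, with no read in 5 of the latter. In pregnancy cells the range was 0 to 3038 CPM (median 384), with no read in 1 cell. The summed levels fell in the order adult luminal (992 CPM), pregnancy (571) and adult basal (376).

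H2-K1 differed least. Its range was 56.3 to 2587 CPM (median 527) in adult luminal, 0 to 3056 (median 318) in adult basal and 13.8 to 2990 (median 522) in pregnancy cells. Medians of adult luminal and pregnancy cells were close to each other, and the summed levels were 585, 469 and 605 CPM in the same order.

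Adult basal cells without class I reads were few. Only cells 76 and 91 lacked both heavy chains, and cell 91 also lacked B2m, where cell 76 had 5 B2m reads. These libraries held 296586 and 107258 reads and showed 8 and 7 of the 10 basal markers. Cell 91 also had 1 immune marker detected, and its immune markers summed to 2098 CPM, the highest among the retained adult cells. It reached neither of the class thresholds that are used below for pregnancy cells. After thinning, 2 of 84 adult basal cells held none of the 3 chains (2.38%, 0.290 to 8.34). The luminal sort had 0 of 41 and pregnancy 0 of 96, with exact intervals up to 8.60% and 3.77%.

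**Figure D1:**
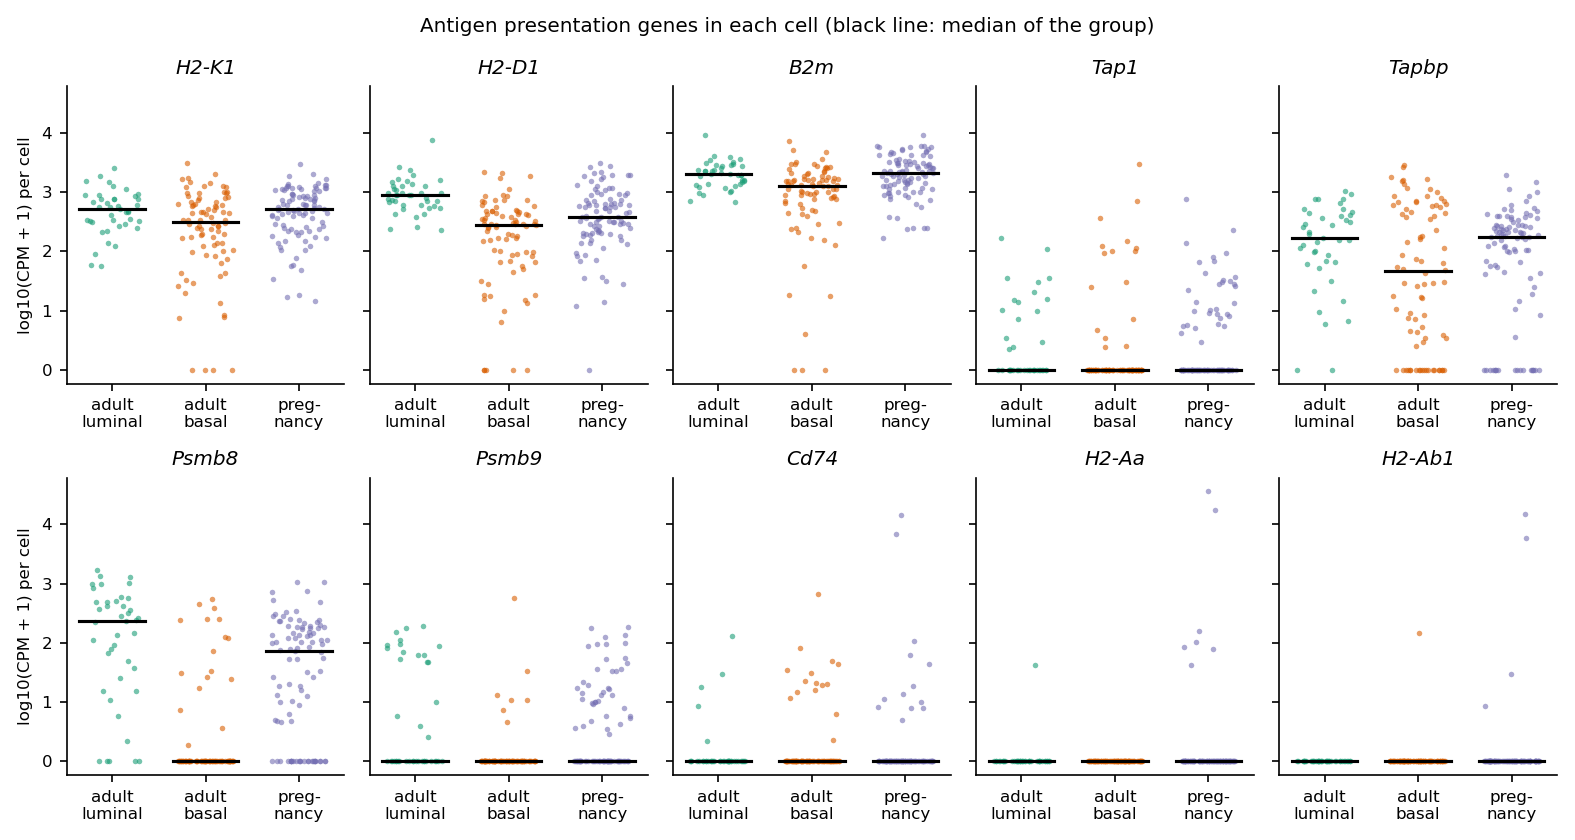
Level of each of the 10 genes in each of 41 adult luminal, 84 adult basal and 96 pregnancy cells, as log10 of CPM + 1 on the y axis, with a black line at the group's median. Class I chains fill every group, Psmb8 has its median above 0 in adult luminal and pregnancy cells only, and the class II genes lie at 0 in most cells with 2 pregnancy cells far above the rest.

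The immunoproteasome subunits drew the sharpest line between the adult sorts. Psmb8 ranged from 0 to 1707 CPM in adult luminal cells with a median of 231, and 5 of 41 cells had no read. In adult basal cells it ranged from 0 to 546 CPM with a median of 0, and 67 of 84 cells had no read. Pregnancy cells lay between, from 0 to 1075 CPM with a median of 71.0 and no read in 26 of 96. Most luminal and pregnancy cells thus carried reads of the gene and most basal cells did not.

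After thinning, the share of cells with Psmb8 was 78.0% in the adult luminal sort (62.4 to 89.4), 61.5% in pregnancy (51.0 to 71.2) and 16.7% in the adult basal sort (9.42 to 26.4). The unthinned shares were 87.8%, 72.9% and 20.2%. The interval of the basal sort did not reach those of the others at equal depth, but these intervals leave out differences between animals.

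Psmb9 was scarcer, and its order was the same. It was detected in 36.6% of adult luminal (22.1 to 53.1), 27.1% of pregnancy (18.5 to 37.1) and 2.38% of adult basal cells (0.290 to 8.34). Its range over cells was 0 to 193 CPM in adult luminal, 0 to 185 in pregnancy and 0 to 572 in adult basal cells, each with a median of 0. The highest basal value was cell 69, which held 64.8% of the basal reads of the gene. Both subunits were found together in 13 of 41 adult luminal cells, 21 of 96 pregnancy cells and 1 of 84 adult basal cells (31.7%, 21.9% and 1.19%).

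Peptide loading did not share this pattern. Tapbp was detected in 90.2% of adult luminal, 63.1% of adult basal and 78.1% of pregnancy cells, but its summed level was close in the 3 groups, at 277, 304 and 228 CPM. In adult basal cells it ran from 0 to 2887 CPM with a median of 45.2, in adult luminal cells from 0 to 1060 with a median of 168, and in pregnancy cells from 0 to 1923 with a median of 174. Fewer basal cells carried the gene, and the median over the cells with a read was 167 CPM in 64 basal and 192 CPM in 39 luminal cells.

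Tap1 was sparse everywhere, with a median of 0 in each group. It was detected in 19.5% of adult luminal (8.82 to 34.9), 15.5% of adult basal (8.51 to 25.0) and 20.8% of pregnancy cells (13.2 to 30.3), with overlapping intervals. The highest values were 165 CPM in adult luminal, 3013 in adult basal and 759 in pregnancy cells. Summed levels were 9.51, 43.2 and 14.1 CPM, and cell 89 alone supplied 34.3% of the adult basal reads.

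Adult basal cell 69 held the highest value of its group for H2-K1 (3056 CPM), Tap1 (3013), Tapbp (2887) and Psmb9 (572) at once. Its H2-D1 (337 CPM) lay between the quartiles of its sort (78.1 and 467), its B2m (2088) lay above the upper quartile (1784), and it had no Psmb8 read in 118801 reads. None of the 12 immune markers was detected in it.

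**Figure D2:**
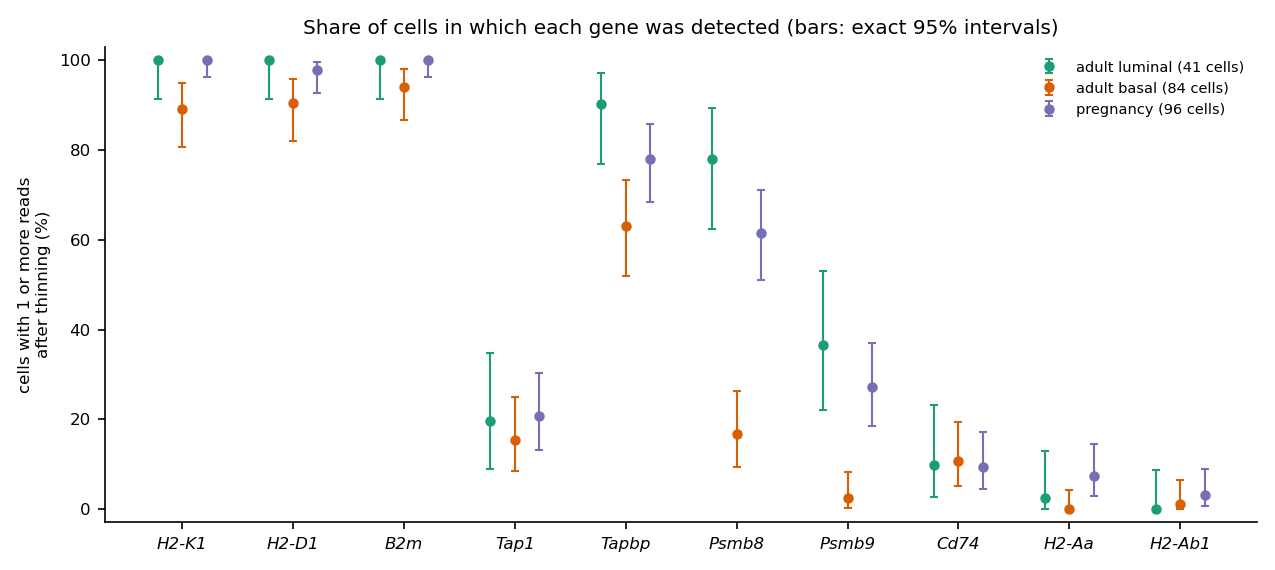
Percentage of thinned cells with 1 or more reads of each gene (y axis, with exact 95% Clopper-Pearson intervals as bars) in the 3 groups. The shares of Psmb8 and Psmb9 in adult basal cells, 16.7% and 2.38%, lie below those of the other groups, while Tap1 and Cd74 have overlapping intervals in all 3.

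The first comparison asked how the layers of the adult gland differ. Every fibroblast and endothelial marker listed was higher in the luminal sort. Dcn stood at 1070 CPM in adult luminal and 42.5 in adult basal cells (detected in 31.7% and 13.1%), and Pecam1 at 15.3 and 0.625. The part of such reads in the comparison was not tested. Of the 10 genes, 4 were at least 2-fold higher in adult luminal than in adult basal cells (H2-D1, Psmb8, Psmb9, H2-Aa), where 34.0% of all 15290 genes were. Lower by at least 2-fold were 3 (Tap1, Cd74, H2-Ab1), where 21.9% of all genes were. Thinned counts gave 3 higher and 2 lower, with Cd74 at -0.67, and so did leaving out the largest cells, which held all reads of H2-Aa and H2-Ab1. The median log2 ratio was 0.55 over the 10 genes and 0.34 over all genes, so the set as a whole lay near the background and its members went in both directions.

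Psmb9 had a log2 ratio of 3.72 (3.42 to 4.02) and Psmb8 of 3.12 (3.04 to 3.20), which are 13.1-fold and 8.68-fold. Without the largest cell of each group these were 5.03 and 3.61, and for Psmb9 the log2 ratio was 2.09 with equal weight per cell and 2.30 with thinned counts. H2-D1 had 1.4 (1.37 to 1.43), B2m 0.79 (0.77 to 0.80), H2-K1 0.32 (0.29 to 0.35) and Tapbp -0.14 (-0.18 to -0.09). Tap1 stood at -2.19 (-2.39 to -1.99), and at -2.42 without its largest cells. Of the genes that share the segment of 225 bases, Psmb9 was thus higher and Tap1 lower in luminal cells by summed level. Of the Tap1 reads in adult basal cells 69.1% were in 3 cells, and the share of cells with a Tap1 read was ordered the other way, 39.0% in luminal and 19.0% in basal cells without thinning. With TMM scaling, which lowered the median of all genes by 0.29, H2-K1 came to 0.02 and the other signs were kept.

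The class II values of the adult sorts rested on very few cells. All 33 H2-Aa reads of the luminal sort were in cell 11 (40.9 CPM), and all 162 H2-Ab1 reads of the basal sort were in cell 57 (146 CPM). Against a floor of 3 reads over the group, H2-Aa was at least 15.6-fold higher in luminal cells and H2-Ab1 at least 38.1-fold lower.

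Other genes of the pathway were counted in lists chosen by function. Of 13 class I heavy chain genes other than H2-K1 and H2-D1 with a ratio, 9 were at least 2-fold higher in adult luminal cells, beside 34.0% of all genes, and 0 lower, beside 21.9%. Their median log2 ratio was 1.26, and with TMM scaling 6 of 13 were higher, beside 4542 of all 15290 genes. Cd1d1, which presents lipids, stood at 45.2 against 4.72 CPM. Since reads can be shared among the H2 copies, their values are not independent of each other.

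Of 5 immunoproteasome and activator genes, only Psmb8 and Psmb9 passed 2-fold, both higher in luminal cells, beside 34.0% of all genes. Psmb10 had a log2 ratio of 0.81 and Psme1, a subunit of the PA28 activator, 0.73. The constitutive subunit Psmb6, the counterpart of Psmb9, stood at 454 against 352 CPM (log2 ratio 0.37). Of 8 loading genes, 1 was higher and 2 were lower, beside 34.0% and 21.9% of all genes, with a median of 0.00. Canx, the chaperone that receives new heavy chains, was at 4798 and 4359 CPM.

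Regulators of the pathway went in both directions. Of 14 with a ratio, 3 were higher and 5 lower in luminal cells, beside 34.0% and 21.9% of all genes. Their median log2 ratio was -0.04. Irf1, an interferon-induced activator of class I genes, was at 152 CPM in adult luminal and 490 CPM in adult basal cells, Nlrc5, the class I coactivator, at 4.23 and 29.6, and the kinase Jak1 at 400 and 917. Of 20 interferon response genes, 10 were higher and 5 lower, beside 34.0% and 21.9% of all genes, with a median log2 ratio of 1.32. The GTPase Iigp1 reached 407 CPM in the luminal sort without a read in the basal sort, while Gbp2 (41.0 against 141) and Irgm1 (48.3 against 165) were lower in luminal cells. Iigp1 was detected in 56.1% of thinned luminal cells.

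**Figure D3:**
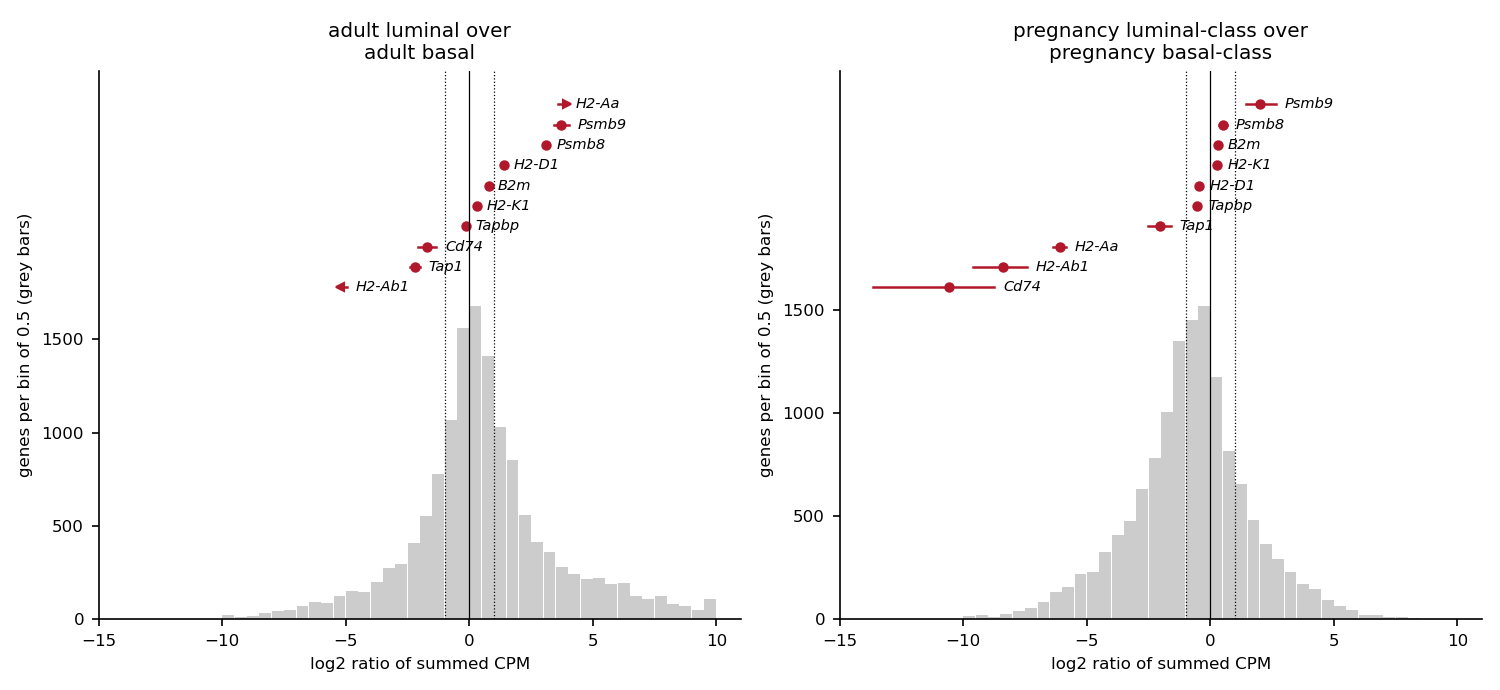
Log2 ratio (x axis) of each of the 10 genes, as red points with counting intervals or as triangles for bounds, above a grey histogram of the log2 ratios of all genes compared (bins of 0.5, values beyond 10 in either direction in the end bins), with dotted lines at 2-fold. In the panel of adult luminal over adult basal cells Psmb9 (3.72) and Psmb8 (3.12) lie far to the right and Tap1 (-2.19) to the left, and in the panel of pregnancy luminal-class over basal-class cells Psmb9 (2.03) and Tap1 (-2.05) keep their sides.

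Within the adult luminal sort, cells were divided by 15 progenitor and 15 mature luminal markers. A cell was called luminal progenitor-like (14 cells) or mature luminal-like (25 cells) by the kind it showed more of, 2 were tied, and 13 cells differed by only 1 or 2 markers. At least 2-fold higher in progenitor-like cells were 3 of the 10 genes (Tap1, Cd74, H2-Aa), against 20.6% of all genes, and 1 was lower (Psmb9), against 28.9% of all genes. Median log2 ratios were -0.04 over the genes with a ratio and -0.22 over all genes.

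The immunoproteasome subunits leaned to the mature luminal-like cells. Psmb8 ran from 9.76 to 1707 CPM (median 240.0) in these and from 0 to 1292 CPM (median 21.1) in progenitor-like cells. Its summed levels were 366 and 233 CPM, with a log2 ratio of -0.65 for progenitor-like over mature luminal-like cells, within 2-fold. It was detected in 22 of 25 (88.0%, 68.8 to 97.5) and in 8 of 14 (57.1%, 28.9 to 82.3), so the intervals overlapped. Psmb9 was detected in 11 of 25 and 3 of 14, with a log2 ratio of -1.11 (-1.37 to -0.85), and of -0.99 with TMM scaling. Psmb10, the remaining catalytic subunit of the immunoproteasome, stood at 74.0 CPM in mature luminal-like and 22.9 CPM in progenitor-like cells.

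Class I chains were close to even between the luminal subsets. The log2 ratio of progenitor-like over mature luminal-like cells was -0.07 for H2-K1, 0.03 for H2-D1, -0.43 for B2m and -0.04 for Tapbp. The signs of H2-K1 and Tapbp turned with TMM scaling, to 0.05 and 0.07. For Tap1 the ratio of 1.32 rested on cell 10, which held 96.3% of the progenitor-like reads, and was -3.04 without the largest cell of each subset. For Cd74 the ratio of 4.58 rested on cell 32 with 77.1% of the reads, and H2-Aa on cell 11 with all of them.

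The second comparison set pregnancy beside the adult sorts, both comparisons sharing the pregnancy cells. Against adult basal cells, 5 of the 10 genes were at least 2-fold higher (Psmb8, Psmb9, Cd74, H2-Aa, H2-Ab1), where 29.7% of all genes were, and 1 was lower (Tap1), where 23.0% of all genes were. Medians were 1.18 over the 10 genes and -0.12 over all. Without 4 pregnancy cells that carried immune markers, described with the class II genes, 3 were higher and 3 lower, with medians of 0.44 and -0.15. Against adult luminal cells, 3 were higher (Cd74, H2-Aa, H2-Ab1), against 23.5% of all genes, and 2 were lower (Psmb8, Psmb9), against 31.2%. Medians were 0.09 and -0.40. In pregnancy cells with title numbers 1 to 55, a range described below, neither of these 2 was 2-fold lower than in adult luminal cells. Psmb8 stood at 197 against 379 CPM and Psmb9 at 22.2 against 39.2.

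Psmb8 and Psmb9 thus lay between the adult sorts in pregnancy cells. Summed levels of Psmb8 were 379 CPM in adult luminal, 120 in pregnancy and 43.7 in adult basal cells, and those of Psmb9 were 39.2, 16.0 and 2.98. The log2 ratio of pregnancy over adult luminal cells was -1.66 (-1.73 to -1.60) for Psmb8 and -1.29 (-1.47 to -1.12) for Psmb9. For Psmb9 it was -0.75 with TMM scaling and -0.93 with milk genes left out of the totals, under 2-fold in both cases.

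H2-K1 and B2m of pregnancy cells were near the adult luminal level, with log2 ratios of 0.05 and 0.12, and H2-D1 was lower, with -0.80 (-0.83 to -0.77). The ratio of Tapbp was -0.28, and it was 0.26 with TMM scaling and 0.08 with milk genes left out. These scalings raised the median over all genes by 0.53 and 0.36, and the genes higher in pregnancy made up 42.9% of those past 2-fold with total reads, 61.5% with TMM and 55.1% without milk genes. Against adult basal cells this share was 56.4% with total reads and 68.3% without milk genes, which raised the median by 0.37.

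Other pathway genes were also counted in these comparisons. Against adult luminal cells, 4 of 5 immunoproteasome genes were at least 2-fold lower in pregnancy with total reads, beside 31.2% of all genes, among them Psme1 (90.3 against 233 CPM) and Psme2 (37.9 against 108), the subunits of the PA28 activator. Of the 3 constitutive subunits, Psmb5 and Psmb6 were lower as well. With TMM scaling 1 of the 5 (Psmb8) and 0 of the 3 were past 2-fold, and with milk genes left out 3 and 0. Of all 15290 genes, 2889 were lower with TMM scaling and 3419 with milk genes left out. Of 13 heavy chain genes other than H2-K1 and H2-D1, 1 was higher and 2 were lower than in adult luminal cells, beside 23.5% and 31.2% of all genes, and 8 were higher and 1 lower than in adult basal cells, beside 29.7% and 23.0%. Of 8 loading genes, Tap1 alone was past 2-fold against adult basal cells, while against adult luminal cells 1 was higher and Pdia3 lower (267 against 642 CPM). Of 20 interferon response genes, 12 were higher and 0 lower against adult basal cells, and 12 and 1 without the immune-marked cells. Against adult luminal cells 8 were higher and 4 lower. With TMM scaling 10 were higher and 1 lower, where 4619 and 2889 of all 15290 genes were.

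The class II genes were found in few cells and reached very high levels in 2 of them. Cd74 is not linked to the complex and lies on chromosome 18 (60803849 to 60812652). Any of the 3 was detected in 12.2% of adult luminal, 11.9% of adult basal and 12.5% of pregnancy cells, and Cd74 was the only one of the 3 in 4 of 5, 9 of 10 and 5 of 12 such cells. Cd74, H2-Aa and H2-Ab1 were detected together in 2 of 96 pregnancy cells (2.08%, 0.253 to 7.32). No adult luminal or adult basal cell held all 3, with exact intervals up to 8.60% and 4.30%.

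In pregnancy, cell 35 had 14511 CPM of Cd74, 36388 of H2-Aa and 14719 of H2-Ab1, and cell 13 had 6785, 17512 and 5976. Cell 35 alone held 56.5%, 56.0% and 60.7% of the group's reads of the 3 genes. Both cells carried 10 of 12 immune markers, with Ptprc at 1289 CPM in cell 35 and 740 CPM in cell 13. Cell 35 showed none of the 10 basal and 1 of the 10 luminal markers, while cell 13 showed 7 and 2. These cells also held high B2m, at 9296 and 5980 CPM.

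Cells 32 and 41 of the pregnancy group also carried 3 or more immune markers, 7 and 5 of 12. Cell 32 had no read of Cd74, H2-Aa or H2-Ab1. Cell 41 had 10.4 CPM of Cd74, 104 of H2-Aa and none of H2-Ab1 beside 6 of 6 fibroblast markers. Together these 4 cells held 98.4% of the pregnancy reads of Cd74, 98.9% of H2-Aa, 99.7% of H2-Ab1 and 100% of Ptprc. The related class II genes H2-Eb1 and H2-DMa, chosen after their values were seen, had 75.0% and 73.5% of their reads there.

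Without the 4 immune-marked cells the pregnancy levels were 3.06 CPM for Cd74, 5.41 for H2-Aa and 0.532 for H2-Ab1, in place of 181, 459 and 171. The log2 ratio over adult basal cells then went from 4.18 to -1.71 for Cd74 and from 5.22 to -3.11 for H2-Ab1, and the bound for H2-Aa from 12.39 to 5.99. Over adult luminal cells Cd74 went from 5.87 to -0.02. Class I chains moved little, with H2-K1 at 595, H2-D1 at 548 and B2m at 2334 CPM in the remaining 92 cells.

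Among those 92 cells, 10 had reads of Cd74 (highest 106 CPM), 4 of H2-Aa (highest 156) and 2 of H2-Ab1 (highest 29.0). The highest H2-Aa and H2-Ab1 values were both in cell 61, which carried 4 of 5 endothelial and 10 of 10 luminal markers. Cells 42 and 62, which also had class II reads, carried 4 and 3 of 5 endothelial markers. Cell 45, with the highest Cd74 (106 CPM), and cell 12 (61.1 CPM) carried 0 of 5. Ciita, chosen after its values were seen, had 2 reads in adult luminal, 1 in adult basal and 2 in pregnancy cells.

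The 12 immune markers were nearly empty in most of the other cells. None was detected in 36 of 41 adult luminal, 76 of 84 adult basal and 77 of 96 pregnancy cells, and 1 or 2 in 5, 8 and 15. Their summed level reached at most 96.2 CPM in an adult luminal cell and 2098 CPM in an adult basal cell. The latter was cell 91, without a read of H2-K1, H2-D1 or B2m. In a pregnancy cell outside the 4 the summed level reached at most 158 CPM. Among the retained cells, no read of Tyrobp, Fcer1g, Laptm5 or Itgax was found outside them. Adult basal cell 60, with the highest Cd74 of its sort (659 CPM), showed 9 of 10 basal markers and no immune marker.

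**Figure D4:**
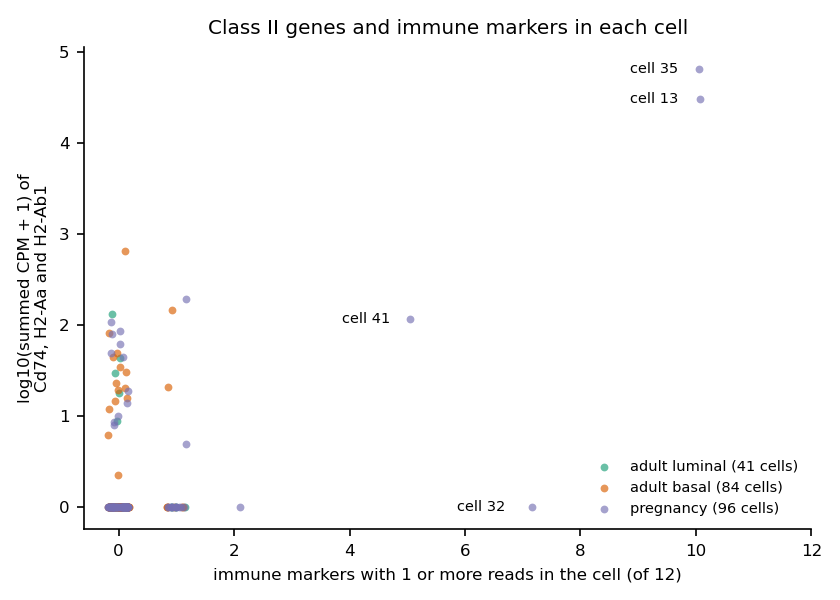
Summed CPM of Cd74, H2-Aa and H2-Ab1 in each cell (y axis, log10 of the sum + 1) against the number of 12 immune markers detected (x axis), by group, with pregnancy cells 13, 32, 35 and 41 labelled. Cells 13 and 35 stand at 10 markers and at the top, while cell 32 has 7 markers and no read of Cd74, H2-Aa or H2-Ab1.

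Of 6 other class II genes with a ratio, 6 were at least 2-fold higher in pregnancy than in adult basal cells, beside 29.7% of all genes, and 4 of 5 without the immune-marked cells. Against adult luminal cells 3 of 6 were higher and 1 lower, beside 23.5% and 31.2% of all genes, and without the immune-marked cells 2 of 5 were higher and 3 lower. Ctss, the lysosomal protease that trims Cd74, stood at 116 CPM in pregnancy and had no read in either adult sort, and cell 35 held 59.4% of its reads. Costimulation genes, which antigen-presenting cells show to T cells, were higher in pregnancy than in adult basal cells for 5 of 5 with a ratio. This stood beside 29.7% of all genes, and 4 of 4 were higher without the immune-marked cells. Between the adult sorts, 4 of 5 other class II genes and 3 of 3 costimulation genes were higher in luminal cells, beside 34.0% of all genes, and 1 class II gene was lower, beside 21.9%. Of 2 class II processing genes 1 was higher and 1 lower.

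The third comparison asked whether the adult difference between layers was also present in pregnancy. Pregnancy cells were assigned with the study's lists of 200 basal and 193 luminal genes (milk genes left out), none of which is among the 10 genes. A class was given where the share of listed genes with a read was above the 10th percentile of the adult sort, 20.1% for basal and 18.7% for luminal genes. This gave 31 luminal-class, 36 basal-class and 26 mixed-class cells, and 3 of neither class. Krt18 stood at 807 CPM in luminal-class and 135 in basal-class cells, and Krt14 at 154 and 1952. Both keratins are in the lists that set the classes, so these levels are no independent check of them. Milk genes took 35.3% and 1.63% of the reads.

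Of the 10 genes, 1 was at least 2-fold higher in luminal-class than in basal-class cells (Psmb9), against 17.1% of all genes, and 4 were lower (Tap1, Cd74, H2-Aa, H2-Ab1), against 39.1%. Medians were -0.49 and -0.72. The genes higher in luminal-class cells made up 30.4% of those past 2-fold with total reads, 47.3% with TMM scaling and 45.6% with milk genes left out, settings that raised the median by 0.67 and 0.60.

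Psmb9 had a log2 ratio of 2.03 (1.43 to 2.68), with 20.7 CPM in luminal-class and 5.08 CPM in basal-class cells. Psmb8 differed less in level, at 124 against 87.6 CPM (log2 ratio 0.50, 0.34 to 0.66), since basal-class cell 5 held 52.5% of the reads of its class. Its ratio was 1.4 without the largest cell of each class. By share of cells the difference was larger. Psmb8 was detected in 25 of 31 luminal-class cells (80.6%, 62.5 to 92.5) and in 11 of 36 basal-class cells (30.6%, 16.3 to 48.1). The share of mixed-class cells was close to the former, at 76.9% (56.4 to 91.0).

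Tapbp was detected in 90.3% of luminal-class and 52.8% of basal-class cells, at summed levels of 196 and 282 CPM. As in the adult sorts, the share and the level were ordered differently. Tap1 had a log2 ratio of -2.05 (-2.51 to -1.59), and -1.13 without the largest cells, basal-class cell 66 holding 71.0% of its class. H2-K1 (0.27), B2m (0.31) and H2-D1 (-0.46) were within 2-fold, and H2-D1 and Tapbp turned sign under both other scalings, to 0.22 and 0.15 with TMM.

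Class II ratios between the pregnancy classes rested on cell 13, which was in the basal class and held 98.8% of its Cd74, 99.6% of its H2-Aa and 100% of its H2-Ab1 reads. The log2 ratios were -10.59, -6.09 and -8.39. Without the immune-marked cells they were -4.25 for Cd74 and 3.34 for H2-Aa. For H2-Ab1 the basal class then had no read, and 0.48 is a lower bound from the floor of 3 reads. The luminal class held only 2 reads of Cd74 and 8 of H2-Ab1.

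The other lists were counted beside 17.1% of all genes higher and 39.1% lower in luminal-class cells. Of 15 regulators 2 were higher and 10 lower, with Irf1 at 132 against 491 CPM and Nlrc5 at 6.87 against 52.6, and of 20 interferon response genes 1 was higher and 13 lower. With TMM scaling, where 24.8% of all genes were higher and 27.6% lower, these counts were 3 and 5 for regulators and 2 and 9 for interferon response genes. Of 8 loading genes 1 was higher and 4 lower (1 and 2 with TMM), and of 15 heavy chain genes 1 was higher and 5 lower (4 and 2 with TMM). Of 5 immunoproteasome genes Psmb9 alone passed 2-fold (2 with TMM), and of 3 constitutive subunits 0 did. Beside a median of -0.72 over all genes, the medians were -1.14 for regulators, -1.22 for interferon response, -0.81 for loading, -0.40 for heavy chain and 0.03 for immunoproteasome genes. The basal class also held more reads of fibroblast and immune markers. All 6 fibroblast markers were higher in it, with Dcn at 1279 against 89.0 CPM and Col1a1 at 248 against 7.66. So were 11 of 12 immune markers, with Lyz2 at 221 against 0. Dcn was detected in 83.3% of basal-class cells and Col1a1 in 16.7%. Endothelial markers went both ways, with Pecam1, Kdr and Cdh5 higher in luminal-class cells and Emcn and Cldn5 higher in basal-class cells. Without the immune-marked cells, 4 of 14 regulators were higher and 9 lower, and 0 of 20 interferon response genes higher and 12 lower, while the part of fibroblast reads in these counts was not tested. Cd1d1 stood at 53.5 CPM in luminal-class and 5.08 CPM in basal-class cells.

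How much of the class I pathway a cell carried was counted over 7 genes (H2-K1, H2-D1, B2m, Tap1, Tapbp, Psmb8, Psmb9). At equal depth, 34 of 41 adult luminal cells held 5 or more (82.9%, 67.9 to 92.8), against 17 of 84 in the adult basal sort (20.2%, 12.3 to 30.4). In pregnancy the share was 77.4% of luminal-class (58.9 to 90.4), 84.6% of mixed-class (65.1 to 95.6) and 30.6% of basal-class cells (16.3 to 48.1). Thinned cells of the adult basal sort also held fewer genes of any kind, with a median of 2246 against 3418 in adult luminal and 3234 in pregnancy cells, and the part of this in the shares was not tested.

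Pregnancy cells were also divided by title number, 1 to 55 (45 cells) and 56 and above (51 cells), a division taken over from earlier results of these data. The ranges differed in milk content (8.89% and 31.4% of reads). The labels name no batch, so what the ranges stand for was not known. With total reads, class I levels were higher in the lower range. H2-K1 stood at 825 CPM in cells 1 to 55 and 471 in cells 56 and above, H2-D1 at 782 and 441, B2m at 2846 and 2172, and Psmb8 at 197 and 72.1. With milk genes left out of the totals H2-K1 was at 905 and 686, H2-D1 at 859 and 643 and Psmb8 at 216 and 105, while B2m was at 3124 and 3165.

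With total reads the order was the same within both classes. In luminal-class cells H2-K1 was at 1001 and 444 CPM and Psmb8 at 212 and 95.7. In basal-class cells H2-K1 was at 640.0 and 253 and Psmb8 at 127 and 31.9. The basal-class Psmb8 values rested on few cells. Cell 5, in the lower range, held 52.5% of the class's reads, and cell 84 had the highest value of the upper range (538 CPM). With milk genes left out, H2-K1 (1208 and 753) and Psmb8 (256 and 162) of luminal-class cells kept the order, and H2-D1 (731 and 751) and B2m (3810 and 3837) did not. Milk genes took 17.1% and 41.1% of the luminal-class reads. The luminal-class over basal-class ratio of Psmb8 was 0.73 in the lower and 1.59 in the upper range. That of Psmb9 was 1.67 and 5.33. The 5.33 rested on 1 Psmb9 read in the 16 basal-class cells of the upper range, so its size is uncertain. Both genes kept their sign. Tap1 did not, with 0.21 in the lower range. All 4 immune-marked cells were in the lower range.

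**Figure D5:**
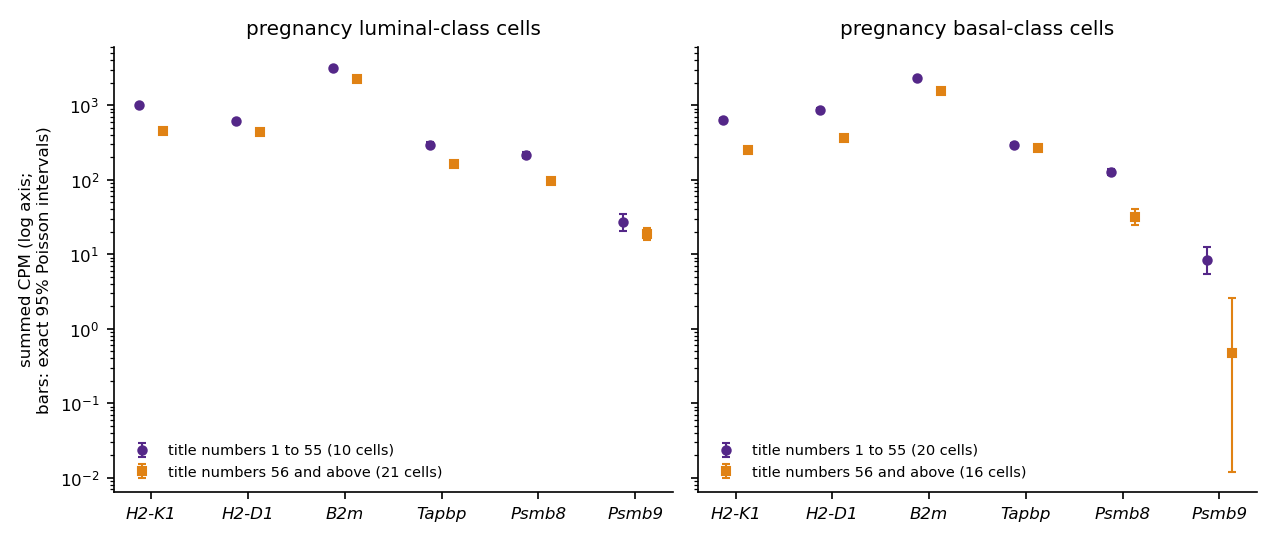
Summed CPM (y axis, log scale, with Poisson intervals) of H2-K1, H2-D1, B2m, Tapbp, Psmb8 and Psmb9 for pregnancy cells with title numbers 1 to 55 and 56 and above, in luminal-class (10 and 21 cells) and basal-class cells (20 and 16 cells). With total reads each gene is higher in the lower range in both panels (H2-D1 and B2m of the luminal class are not once milk genes are left out), from 640 against 253 CPM for H2-K1 to 291 against 270 CPM for Tapbp in the basal class.

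Over single cells the class I chains varied together to differing degrees. Spearman's rho between H2-K1 and H2-D1 was 0.37 over 41 adult luminal, 0.14 over 84 adult basal and 0.53 over 96 pregnancy cells, and that between H2-K1 and B2m was 0.36, 0.24 and 0.52. In luminal-class pregnancy cells both were higher, at 0.70 and 0.60 over 31 cells. These are descriptions over cells that share a group, depth and, for pregnancy, milk content, and reads shared between H2-K1 and H2-D1 can raise the first.

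The genes most like the summed level of H2-K1, H2-D1 and B2m were named from those detected in 50% or more of thinned cells. In adult luminal cells (2209 genes) these were Kdm6b (rho 0.55), Elf1 (0.48), S100a6 (0.47), Pum2 (0.45) and Gpx1 (0.44), where the 99th percentile over genes was 0.38. In pregnancy cells (2239 genes) they were Nfkbia (0.57), which encodes an inhibitor of NF-kB, Itm2b (0.55), Rnf213 (0.49), Psme1 (0.49) and Gm5148 (0.46), where the 99th percentile was 0.37. Only Psme1 was in the pathway lists.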

How the data were processed

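Each library was cDNA of 1 cell from a Fluidigm C1 chip, made into a Nextera XT library, which does not mark strand. The authors mapped read pairs to mm10 with Subread 1.4.6 and assigned them to genes with featureCounts and its built-in RefSeq annotation, per the submitters' processing notes and the study's methods. The deposited values are raw counts per Entrez gene and cell, with no molecular identifiers. The deposited series table held the same counts (0 cells differed) and was not used.

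Of 27179 gene IDs 25275 were paired with a symbol, and the 1904 others, with 1.20% of reads, were left out. After removal of 15 mitochondrial (9.54% of reads) and 124 ribosomal genes (1.72%), 25136 genes remained, and cells with 50000 or more reads on them were kept. Depth ran from 173158 to 1006323 reads in adult luminal, 67170 to 1290757 in adult basal and 53966 to 790397 in pregnancy cells. Intact capture of 1 cell was judged by the authors under the microscope, and no doublet caller was run here. Counts were summed over the cells of a group, scaled to CPM, and compared as ratios with exact conditional intervals. A gene with 0 reads in one group got a bound from a floor of 3 reads over the group. At least 2-fold was the threshold for counting genes. For shares of cells each cell was thinned to 50000 reads with a fixed seed. No test was run between groups, since the labels name no animal.

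The 10 genes, the pathway lists and the marker lists were chosen with earlier results of these data known, and the study's 200 basal and 200 luminal genes served to class pregnancy cells. Per the study's methods, those 2 lists came from RNA-seq data published earlier. All 10 genes were named, with other listed genes at 20 CPM or more in at least 1 group, and the 5 genes most like the class I sum. The search for 1 further promoter motif is not reported here. Of 18 heavy chain genes listed, 17 matched an ID. Alternatives were TMM factors (edgeR 4.0.16, R 4.3.3), milk genes left out of totals, equal weight per cell, thinned counts, no filter, the study's minimums, cell 19 kept, the largest cell left out, title ranges, other class rules, list counts under these scalings and without immune-marked cells (added after seeing the data), and detection at 5 reads or without thinning. The code (Python 3.11.15, numpy 2.4.6, pandas 2.3.3, scipy 1.17.1, matplotlib 3.10.9) was tested on simulated data.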

Additional observations from a re-analysis of the deposited data

Results flagged for a closer look

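Adult basal cell 19 was in no comparison of the report and held class II reads far above every retained cell of its sort. It had 25008 CPM of Cd74, 43683 CPM of H2-Aa and 16353 CPM of H2-Ab1, where the highest values among the other adult basal cells were 659, 0 and 146 CPM. It carried 10 of 12 immune markers, with Ptprc at 577 CPM, 5 of 10 basal markers and none of the 10 luminal markers. Its B2m was 7008 CPM, its H2-D1 1720 CPM and its H2-K1 247 CPM, and it had no read of Psmb8, Psmb9 or Tap1 in 514520 reads.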

How the results depend on the processing

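Of 475 alternative values of the 10 genes' ratios, 206 lay within the counting interval of the reported value. A reported ratio of at least 2-fold turned sign in 18, and the other 251 lay outside the interval. Sign turns of ratios under 2-fold are not among the 18, such as H2-D1 between the pregnancy classes (-0.46, and 0.22 with TMM scaling). Psmb8 and Psmb9 stayed at least 2-fold higher in adult luminal than adult basal cells under all alternatives run, at 2.82 to 3.61 and 2.09 to 5.03 on the log2 scale.

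With cell 19 kept, the log2 ratio of H2-Aa in adult luminal over adult basal cells was -8.89, those of pregnancy over adult basal cells were -1.03 (Cd74), -0.46 (H2-Aa) and -0.49 (H2-Ab1), and the genes past 2-fold were 2 higher and 2 lower. With title numbers 56 and above only, pregnancy over adult basal cells had 2 higher and 3 lower, with Cd74 at -4.0 and H2-Ab1 at -2.46, pregnancy over adult luminal cells had 4 lower, with Cd74 at -2.31, and luminal-class over basal-class cells had 3 higher and 1 lower, with H2-Aa at 2.47. With title numbers 1 to 55 only, 0 genes were lower in pregnancy than in adult luminal cells, and Tap1 between the classes was 0.21. All 3 class II genes were found in 0 of 51 cells with title numbers 56 and above (exact interval up to 6.98%).

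The immune-marked cells and class thresholds from cells with the study's minimums were alternatives chosen after seeing the data. Without the immune-marked cells, pregnancy over adult basal cells had 3 higher and 3 lower (Cd74 -1.71, H2-Ab1 -3.11), and Cd74 over adult luminal cells was -0.02. Luminal-class over basal-class cells had 2 higher and 2 lower (H2-Aa 3.34, H2-Ab1 at least 0.48). All 3 class II genes were held by 0 of 92 cells (exact interval up to 3.93%).

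Pregnancy over adult luminal cells had 1 gene lower with TMM scaling, with milk genes left out and with thinned counts. Luminal-class over basal-class cells had 2 higher under these settings and with equal weight per cell, and 3 higher and 2 lower without the largest cells, with H2-Aa at 1.02. Progenitor-like over mature luminal-like cells had 0 lower with TMM, 1 higher and 0 lower with thinned counts (Tap1 -0.28), 1 higher and 2 lower without the largest cells (Tap1 -3.04), and 2 lower with 8 or more markers of one kind (Tap1 -3.13). Except where an alternative leaves out the cells that held the reads, the cause was not tested. No paired analysis was possible because the cell numbers in the labels only name cells and no comparison came from a test. Tap1, Psmb9 and the class II genes had medians over cells of 0 in each group. In pregnancy, thinning lowered the cells with Tap1 from 33 to 20 and those with Psmb9 from 40 to 26. Cells with Cd74 went from 13 to 9, and those with H2-Aa stayed at 7.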
